A study of Mus musculus with 6 samples.

Results

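Actin and a set of proteins that control it in dendritic spines were followed at the mRNA level in mouse synaptoneurosomes, a filtered brain fraction in which pre- and postsynaptic endings are enriched. The 10 genes were taken by symbol from the 21958 protein-coding genes of the count table: the cytoplasmic actins Actb and Actg1, the cofilins Cfl1 and Cfl2, the profilins Pfn1 and Pfn2, drebrin (Dbn1), and the Arp2/3 subunits Arpc2, Arpc3 and Arpc5. All 10 had enough counts to be tested, among 12255 genes tested in all. The 6 RNA-seq libraries came from the hippocampus and adjoining cortex of FVB mice aged 6 to 8 weeks, with 3 libraries in each of 2 groups. In the polyribosome group, synaptoneurosomes received 50 µM NMDA and 10 µM glutamate for 30 s, then 120 µM APV, an NMDA receptor blocker, and were kept for 20 min before polyribosomal RNA was collected from a sucrose gradient. The total group was not stimulated and stayed on ice with cycloheximide, which halts ribosomes, and its total RNA was sequenced. Preparations were made from several mice, and replicate numbers 1 to 3 mark preparations whose aliquots entered both groups. Stimulation, incubation and RNA fraction changed together between the groups, so their parts cannot be told apart.

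Actin exists as monomers and as filaments, and the balance between them sets the shape and size of the dendritic spine. Profilin binds monomers and helps to add them to growing filament ends, cofilin severs and depolymerises filaments, the Arp2/3 complex starts branches on existing filaments, and drebrin binds along filaments and marks the stable pool in spines. Actb mRNA is a classical example of an mRNA carried into neurites and translated there, and glial cells use the same ubiquitous actin, profilin and cofilin genes.

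Pfn1 was the 1 gene of the 10 that passed the test, with a level 2.10-fold higher in the polyribosomal fraction than in total RNA. Actb, Actg1 and Cfl1 were higher in each of the 3 preparations by smaller amounts. They passed the same threshold in the fit that paired the preparations, which called 11.8% of all genes higher and 13.2% lower. Without pairing, 0.710% of all genes were called higher and 2.36% lower. Cfl2 and Pfn2, the close relatives of Cfl1 and Pfn1, had estimates of the opposite sign, as did Arpc2 and Arpc5. None of these 4 genes passed the threshold in any fit run. The sign of Cfl2 turned when GC content and length were offset. Arpc3 lay above zero in each preparation without passing, and the estimate for Dbn1 had no stable sign.

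The paralogs are told apart by their sequences, and the opening bases of each coding region show how far a read can separate them. In each pair the first 60 coding bases are given 5′ to 3′ from the Gencode transcripts on GRCm38, with the bases that differ from the paralog in capitals.
Actb: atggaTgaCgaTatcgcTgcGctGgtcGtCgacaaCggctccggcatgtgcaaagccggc
Actg1: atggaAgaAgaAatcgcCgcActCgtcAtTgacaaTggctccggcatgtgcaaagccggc
Cfl1: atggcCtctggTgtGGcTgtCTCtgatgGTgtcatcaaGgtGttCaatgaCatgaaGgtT
Cfl2: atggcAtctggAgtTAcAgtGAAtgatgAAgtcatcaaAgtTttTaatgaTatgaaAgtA
Pfn1: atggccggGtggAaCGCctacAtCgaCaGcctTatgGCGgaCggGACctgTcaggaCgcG
Pfn2: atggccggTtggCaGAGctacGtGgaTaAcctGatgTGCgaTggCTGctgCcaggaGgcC

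The Actb stretch lies at chr5:142905627-142905686 and the Actg1 stretch at chr11:120348032-120348091, both on the minus strand. Those of Cfl1 (chr19:5490600-5492553, plus strand) and Cfl2 (chr12:54861777-54862746, minus strand) each span 2 exons. Those of Pfn1 (chr11:70654421-70654480) and Pfn2 (chr3:57847423-57847482) are on the minus strand. The actins differed at 9 of these 60 bases, the cofilins at 16 and the profilins at 20. Over the whole coding region, 1000 of 1128 bases were identical between Actb and Actg1 (88.7%), with a longest identical run of 62 bases, which is shorter than the 100 bases of a read. Identity was 71.5% (358 of 501 bases) for the cofilins and 61.5% (260 of 423 bases) for the profilins, with longest shared runs of 11 and 12 bases. No stretch of 100 bases was therefore common to the coding regions of a pair.

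Copies elsewhere in the genome were a larger source of shared sequence. Of the 1943 stretches of 100 bases in Actg1 transcripts, 946 (48.7%) also occurred in transcripts of other genes, which were 6 processed pseudogenes including Actg-ps1. The share was 10.7% for Cfl1, with the pseudogene Gm6180 and with Snx32, which overlaps it on the opposite strand, and 1.04% for Actb. It was 0 for the other 7 genes. Levels of Actg1, and ratios that use it, are therefore uncertain, because the handling of reads that fit several places is not given in the sources used here.

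Library depth ran from 5294482 to 7361580 counts in the polyribosome group and from 1044955 to 3738022 in the total group, so total replicate 3 gave the least precise values. Replicates differed by more than sampling noise in every pair of a group (chi-square per degree of freedom 3.58 to 20.9). Preparation 3 stood farthest from the others in both groups, with 19.0 and 20.9 against 7.46 between polyribosome replicates 1 and 2, and with 8.78 and 6.55 against 3.58 between total replicates 1 and 2. Levels are in CPM, that is counts scaled to a common library size, after scaling of the libraries by the trimmed mean of M values (TMM), and fold changes come from the quasi-likelihood test of edgeR, whose p-values were adjusted over all 12255 genes by the Benjamini-Hochberg method. A gene is said to have risen or fallen where its adjusted p was under 0.01. In bulk samples such as these, fewer cells or endings of a type and less RNA in each cannot be told apart.

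The 10 genes together took 0.273%, 0.261% and 0.331% of the counts in polyribosome replicates 1, 2 and 3, and 0.218%, 0.208% and 0.236% in total replicates 1, 2 and 3. Every polyribosome library thus lay above every total library. Actb alone supplied 58.1% to 59.9% of these counts in the polyribosome group and 55.1% to 55.3% in the total group.

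Actb, on mouse chromosome 5 at 142903115 to 142906754, encodes β-actin, the main actin of non-muscle cells, and its mean level was above that of 99.5% of the genes tested. It had 1582, 1568 and 2162 CPM in polyribosome replicates 1, 2 and 3, against 1120, 1118 and 1301 CPM in the total group (1770 ± 339 against 1180 ± 105, SD, n = 3 each). The groups did not overlap, and preparation 3 was the highest in both. The log2 fold change was 0.59 (SE 0.19), with an edgeR adjusted p of 0.0469. Actb was higher in 3 of 3 preparations, by 0.50, 0.49 and 0.73 on the log2 scale, and it rose in the fit with the preparation as a block (log2 fold change 0.57, edgeR adjusted p = 1.46e-04). With an offset for GC content and length and no block, the estimate was 0.42 (edgeR adjusted p = 0.137). Actb passed the threshold in 2 of 16 alternative fits, both with the block.

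Actg1, on chromosome 11 at 120345690 to 120348542, encodes γ-actin, the other cytoplasmic isoform. Its levels were 192, 194 and 284 CPM in the polyribosome group and 129, 127 and 155 CPM in the total group (223 ± 52.4 against 137 ± 15.9). As for Actb, the groups were apart and preparation 3 was the highest in each. Its log2 fold change was 0.71 (SE 0.19), with an edgeR adjusted p of 0.0254, and the 3 preparations differed by 0.58, 0.62 and 0.87. It rose in the blocked fit (0.68, adjusted p = 6.16e-06), and DESeq2 called it without a block (0.73, adjusted p = 0.00582). The offset for GC content and length without the block gave 0.50 (edgeR adjusted p = 0.0754). Of 16 alternative fits, Actg1 passed in 5, among them the fit without preparation 3, which was chosen after seeing the data.

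The other actin genes of this kind gave almost no signal. The muscle actins Actc1 and Actg2 and the β-actin-like gene Actbl2 had at most 1 count in any library, and Acta2, the smooth muscle actin, had 1 to 6 counts. Acta1, of skeletal muscle, had 2 to 30 counts.

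Pfn1, on chromosome 11 at 70651850 to 70654644, encodes profilin 1, the ubiquitous profilin. It had 68.3, 73.5 and 101 CPM in the polyribosome group and 35.0, 39.2 and 43.2 CPM in the total group (81.0 ± 17.6 against 39.1 ± 4.07). The lowest polyribosome library was well above the highest total library. Pfn1 rose by a log2 fold change of 1.07 (SE 0.19, edgeR adjusted p = 0.00455), which was larger than that of 98.8% of the genes tested. Of all genes, 0.710% were called higher and 2.36% lower, against 1 and 0 of these 10. Its differences by preparation were 0.96, 0.91 and 1.23, and the block gave 1.01 (adjusted p = 1.30e-09). The call was lost without polyribosome replicate 2 (adjusted p = 0.0139), total replicate 1 (0.0381) or total replicate 2 (0.0320), while the estimate stayed between 0.89 and 1.17 over the 6 fits that each left out a library. Those 6 fits had no block, and each kept a preparation in a single group. The call was also lost when an offset for GC content and length was added (0.66, adjusted p = 0.0246). It was kept when that offset was used with the block (0.63, adjusted p = 2.32e-05).

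Pfn2, on chromosome 3 at 57841895 to 57848079, encodes the profilin that predominates in neurons. It had 120, 122 and 71.6 CPM in the polyribosome group and 134, 155 and 76.7 CPM in the total group (105 ± 28.5 against 122 ± 40.5). The 2 libraries of preparation 3 were the lowest of their groups, and the groups overlapped. On the log2 scale the difference was -0.25 (SE 0.24, edgeR adjusted p = 0.519), with -0.16, -0.34 and -0.10 in the 3 preparations. It was nearer to 0 without polyribosome replicate 3 (-0.05) or total replicate 2 (-0.05) and farther without total replicate 3 (-0.46).

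**Figure D1:**
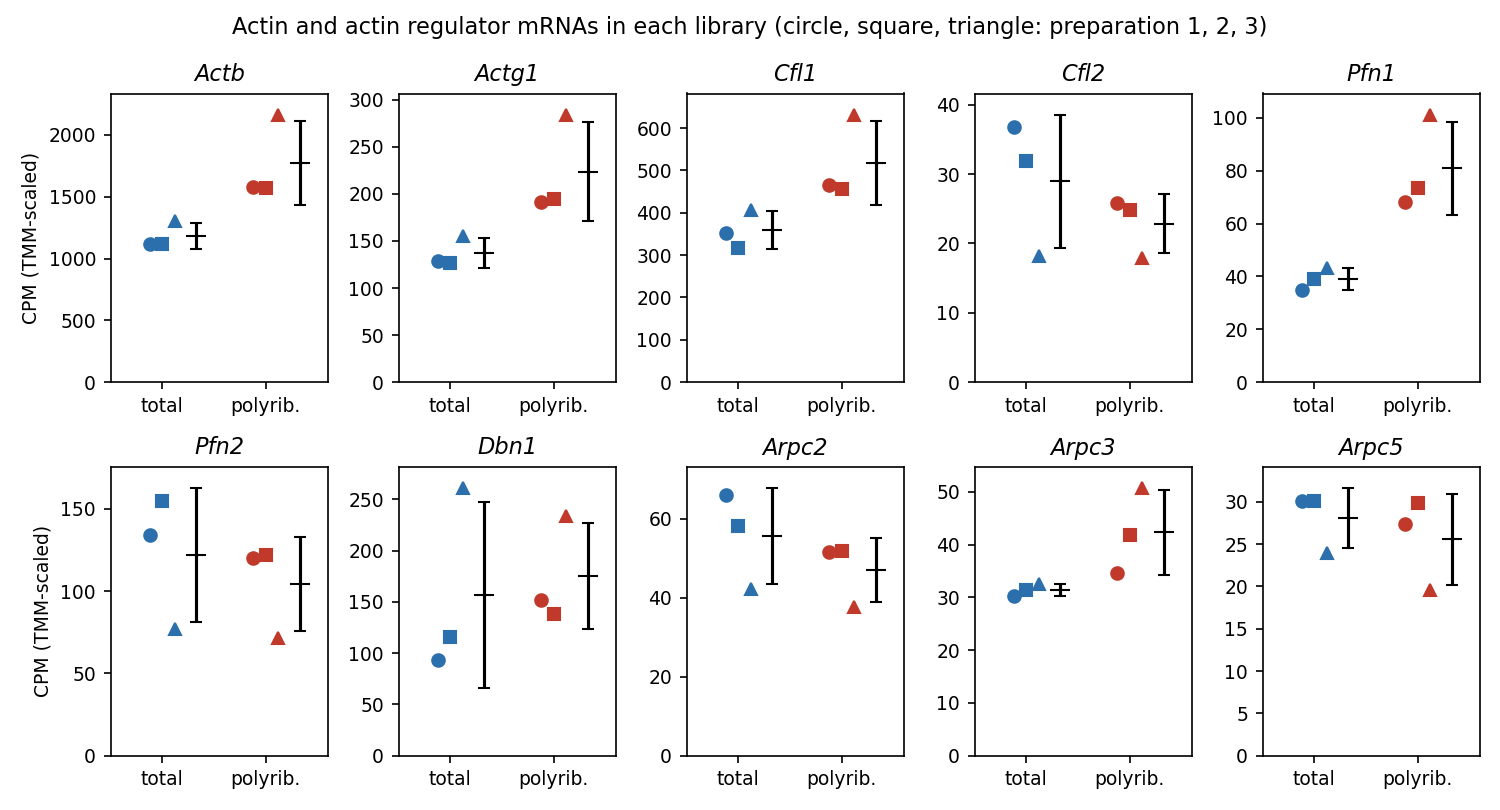
Levels of the 10 genes in each library, in CPM after TMM scaling on a separate linear axis from 0 for each gene, for the total and polyribosome groups; circles, squares and triangles are preparations 1, 2 and 3, and bars give the mean ± SD (n = 3). The groups are apart for Actb, Actg1, Cfl1, Pfn1 and Arpc3, and preparation 3 (triangles) is lowest in both groups for Pfn2, Cfl2, Arpc2 and Arpc5.

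Cfl1, on chromosome 19 at 5490485 to 5494029, encodes cofilin 1, the main cofilin of brain and non-muscle cells. Its levels were 465, 456 and 631 CPM in the polyribosome group and 351, 317 and 407 CPM in the total group (517 ± 98.8 against 358 ± 45.0). The groups did not overlap, although polyribosome replicate 2 was close to total replicate 3. The log2 fold change was 0.53 (SE 0.19, edgeR adjusted p = 0.0629), and each preparation was higher, by 0.41, 0.52 and 0.63. Cfl1 rose in the blocked fit (0.52, adjusted p = 4.46e-04). It did not pass with the offset for GC content and length alone (0.43, edgeR adjusted p = 0.124). Of 16 alternative fits, it passed in 2, both with the block.

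Cfl2, on chromosome 12 at 54858817 to 54862877, encodes the muscle-type cofilin, which neurons also make. It was the least abundant of the 10 genes per length, with 87 to 191 counts in the polyribosome libraries and 19 to 148 in the total libraries. Levels were 25.8, 24.9 and 17.9 CPM in the polyribosome group and 36.8, 31.8 and 18.2 CPM in the total group (22.9 ± 4.32 against 28.9 ± 9.60). Preparation 3 had the lowest value in both groups and almost no difference between them. Cfl2 had a log2 fold change of -0.41 (SE 0.23, edgeR adjusted p = 0.225), with -0.51, -0.36 and -0.02 by preparation. Its exons were the most AT-rich of the 10 genes (36.9% GC), and the estimate turned to 0.09 when GC content and length were offset, with or without the block.

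Dbn1, on chromosome 13 at 55473429 to 55488111, encodes drebrin, an actin side-binding protein concentrated in spines. It had 152, 139 and 234 CPM in the polyribosome group and 93.6, 116 and 261 CPM in the total group (175 ± 51.6 against 157 ± 90.8). Preparation 3 was the highest in both groups, and its total library was the highest of the 6. The differences were 0.70 and 0.26 in preparations 1 and 2 and -0.16 in preparation 3. The log2 fold change was 0.20 (SE 0.31, edgeR adjusted p = 0.696), and 0.28 with the block (adjusted p = 0.0817). With the block and the offset for GC content and length it was -0.01. Without both libraries of preparation 3, a fit chosen after seeing the data, it was 0.47 (edgeR adjusted p = 0.0215). It went to 0.74 without total replicate 3 (adjusted p = 0.0419), to -0.05 without polyribosome replicate 3, and to -0.08 without total replicate 1. Leaving out a single library kept its preparation in only the other group, so these last fits mixed preparation with group. As the sign differed between preparations and between fits, no direction can be given for Dbn1.

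The Arp2/3 complex was represented by 3 of its smaller subunits, whose products sit in the same assembly. Arpc3, on chromosome 5 at 122391878 to 122414184, had 34.6, 41.7 and 50.6 CPM in the polyribosome group and 30.3, 31.5 and 32.6 CPM in the total group (42.3 ± 8.03 against 31.5 ± 1.16). The groups were apart and the total values were tightly placed. Arpc3 had a log2 fold change of 0.43 (SE 0.19, edgeR adjusted p = 0.131), with 0.19, 0.41 and 0.64 by preparation, and the blocked fit did not pass the threshold either (0.37, adjusted p = 0.0373).

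Arpc2, on chromosome 1 at 74236084 to 74268209, encodes a subunit of the structural core that contacts the mother filament. It had 51.7, 51.8 and 37.7 CPM in the polyribosome group and 66.1, 58.3 and 42.2 CPM in the total group (47.1 ± 8.12 against 55.5 ± 12.2). Each total library was above the polyribosome library of its preparation, but the groups overlapped. Arpc2 had a log2 fold change of -0.27 (SE 0.20, edgeR adjusted p = 0.363). That was -0.15 without polyribosome replicate 3, -0.13 without total replicate 1 and -0.40 without total replicate 3.

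Arpc5, on chromosome 1 at 152766542 to 152775597, encodes the smallest subunit. Its levels were 27.3, 29.8 and 19.6 CPM in the polyribosome group and 30.0, 30.1 and 24.0 CPM in the total group (25.6 ± 5.35 against 28.1 ± 3.53). Preparation 3 was again the lowest in both groups, and the difference was smaller than the spread between replicates. For Arpc5 the log2 fold change was -0.16 (SE 0.20, edgeR adjusted p = 0.630), and it lay between -0.28 without polyribosome replicate 2 and -0.02 without polyribosome replicate 3.

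Over the 10 genes, 6 estimates were positive and 4 negative, with a median log2 fold change of 0.32 against 0.00 for all genes tested. That median ran from 0.14 without polyribosome replicate 3 to 0.54 without total replicate 3. It was 0.18 with the offset for GC content and length, and 0.15 with that offset and the block. In 5 of the 10 genes every polyribosome library was above every total library, and in 0 was it the reverse, whereas 17.4% and 18.9% of all genes were apart in these directions. With the preparation as a block, 4 of the 10 genes were called higher and 0 lower, where 11.8% and 13.2% of all genes were called. With the block and the offset for GC content and length, the same 4 genes were called (Actb, Actg1, Cfl1 and Pfn1), against 9.11% of all genes called higher and 7.25% called lower. At an adjusted p under 0.05 without a block, 3 of the 10 were called higher (Actb, Actg1 and Pfn1) and 0 lower, against 6.52% and 8.85% of all genes. DESeq2, fitted to 16736 genes, called 1.89% of them higher and 2.23% lower, and among the 10 called Actg1 and Pfn1. Its filter can leave genes with few counts without an adjusted p, and such genes are included in the 16736.

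**Figure D2:**
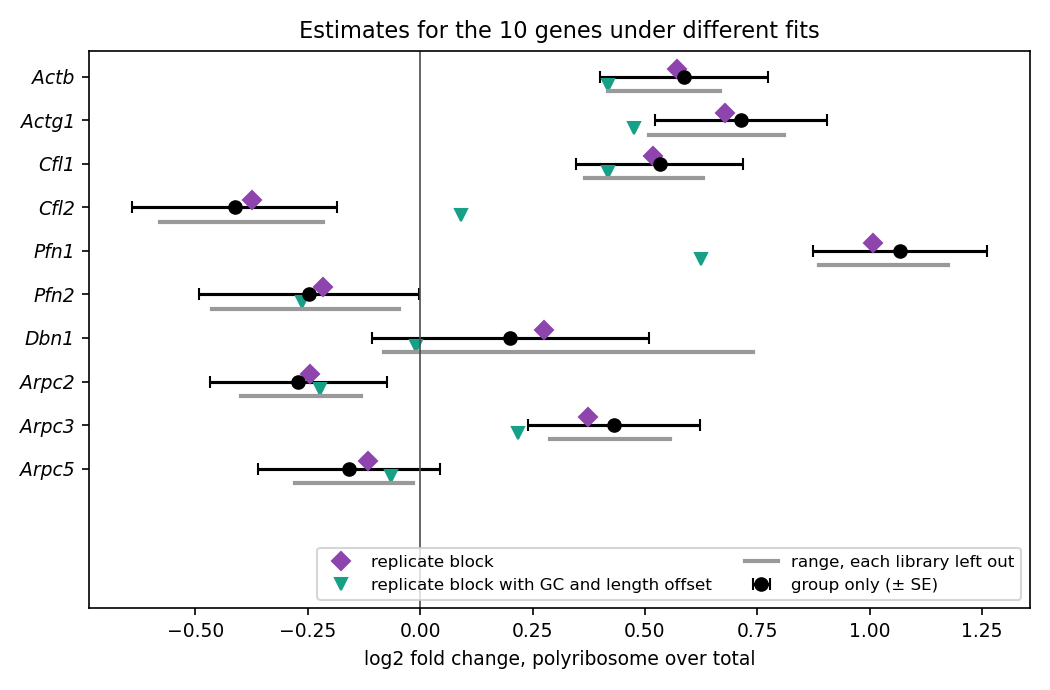
Log2 fold change of the polyribosome over the total group for each of the 10 genes; black points with bars are the estimate ± SE of the fit on group alone, diamonds the fit with a replicate block, triangles the block with an offset for GC content and length, and grey lines the range when each library was left out in turn. Pfn1 is farthest from 0 at 1.07, Cfl2 and Dbn1 cross 0 with the offset, and Dbn1 has the widest grey line.

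Ratios of 2 genes within a library do not depend on how libraries are scaled. There were 6 such ratios, each compared by an exact two-sided permutation test of the group means, which cannot give a p under 0.1 with 3 against 3. That test treats the libraries as independent and takes no account of the preparations. An exact test that flips the signs of the 3 differences within preparations cannot give a p under 0.25. Its p was 0.25 for every ratio except Arpc2/Arpc5, where it was 0.5. The Pfn1/Pfn2 count ratio was 0.569, 0.602 and 1.41 in the polyribosome group and 0.261, 0.253 and 0.563 in the total group. Its log2 value was 1.23 higher in the polyribosome group (exact p = 0.1, adjusted p = 0.3 over the 6 ratios), and the shift was much alike in the 3 preparations (1.13, 1.25 and 1.33). The ratio was far higher in preparation 3 than in the others in both groups, so the spread within a group (SD 0.73 and 0.65) was large beside the steady shift within preparations. Without polyribosome replicate 3 the difference was 0.81.

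The Cfl1/Cfl2 count ratio had the same form, with log2 values of 4.17, 4.20 and 5.14 in the polyribosome group and 3.26, 3.32 and 4.48 in the total group. The difference was 0.82 (exact p = 0.3, adjusted p = 0.36), and the groups overlapped because of preparation 3. It was 0.50 without polyribosome replicate 3, and the ratio takes no account of GC content, whose offset turned the sign of Cfl2. By preparation the shift was 0.91, 0.88 and 0.66. For the cofilins as for the profilins, the ubiquitous form was thus higher relative to its paralog in each of the 3 polyribosome libraries than in the matching total library.

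The Actb/Actg1 count ratio was close to constant, at 8.25, 8.06 and 7.61 in the polyribosome group and 8.71, 8.80 and 8.38 in the total group. The log2 difference was -0.11 (exact p = 0.1, adjusted p = 0.3), with -0.08, -0.13 and -0.14 by preparation, and the groups were apart. The 2 actin mRNAs therefore moved nearly together, with the uncertainty over Actg1 reads given above.

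Within Arp2/3, the Arpc2/Arpc3 ratio was 0.64 lower on the log2 scale in the polyribosome group (exact p = 0.2, adjusted p = 0.3), and -0.55, -0.58 and -0.80 by preparation. Arpc3/Arpc5 differed by 0.56 (exact p = 0.2, adjusted p = 0.3), with 0.33, 0.42 and 0.93 by preparation. Arpc2/Arpc5 differed by -0.08 (exact p = 0.4, adjusted p = 0.4), and its differences had both signs (-0.22, -0.15 and 0.13). Of the 3 subunits, Arpc3 was thus the one whose level shifted against both others in each preparation. The groups overlapped for both of these ratios, however. Their differences shrank to -0.35 (Arpc2/Arpc3) and 0.24 (Arpc3/Arpc5) without polyribosome replicate 3.

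**Figure D3:**
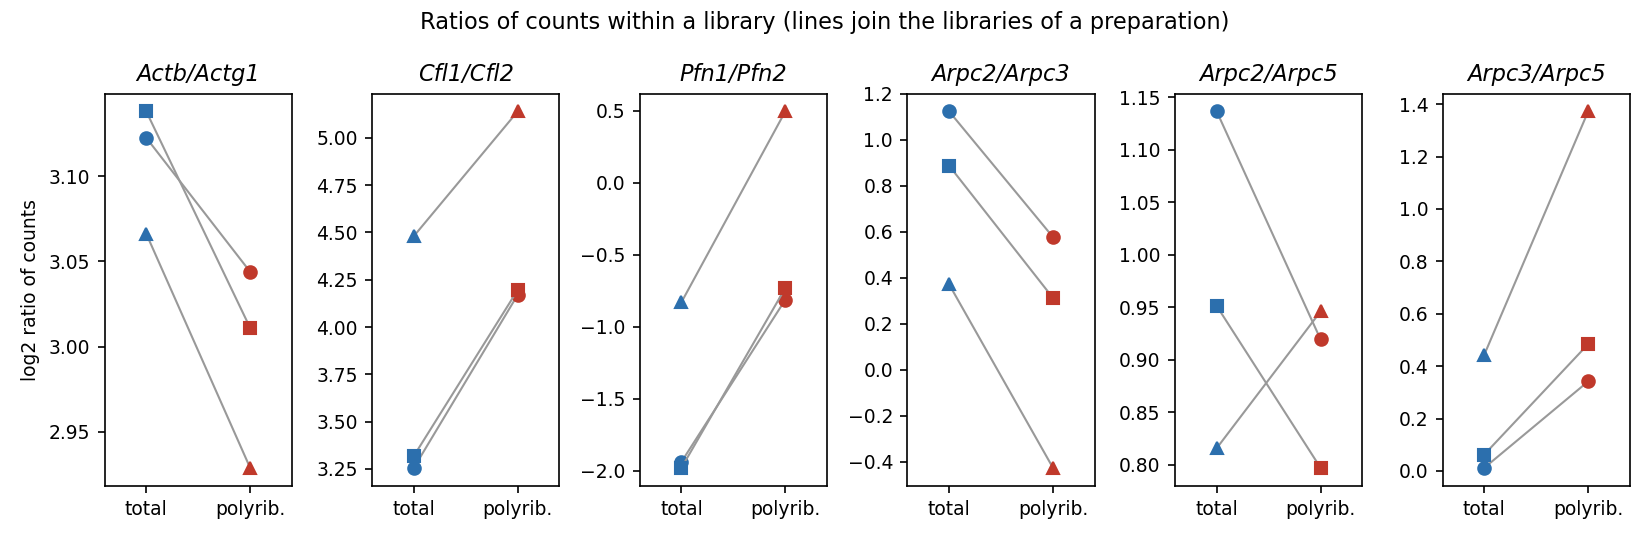
Log2 ratio of raw counts of 2 genes in each library, with a separate axis for each ratio; circles, squares and triangles are preparations 1, 2 and 3, and lines join the total and polyribosome libraries of a preparation. The lines rise in all 3 preparations for Cfl1/Cfl2, Pfn1/Pfn2 and Arpc3/Arpc5, fall in all 3 for Actb/Actg1 and Arpc2/Arpc3, and have both directions for Arpc2/Arpc5.

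Levels of different genes were compared per kilobase of exon, in CPM per kb. In total RNA, Actb led with 614, followed by Cfl1 with 143 and Actg1 with 70.2. Dbn1 (50.9), Pfn1 (38.1), Pfn2 (34.4), Arpc2 (30.9) and Arpc3 (26.9) formed a run in which each gene's 3 libraries overlapped those of the next, and Dbn1 overlapped Actg1 as well. Arpc5 (14.7) and Cfl2 (9.84) were the lowest, and the libraries of one lay below those of the other by a narrow margin.

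In the polyribosome group the first 3 places were the same, with 922 for Actb, 207 for Cfl1 and 114 for Actg1. Pfn1 came next with 78.9, above Dbn1 with 56.8, although its libraries overlapped those of both Actg1 and Dbn1. Arpc3 (36.2) stood above Pfn2 (29.5) and Arpc2 (26.2), and these neighbours overlapped too. Arpc5 (13.4) and Cfl2 (7.78) closed the order as in total RNA. Pfn1 had a level per kb close to that of Pfn2 in total RNA and was clear of it in the polyribosomal fraction.

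**Figure D4:**
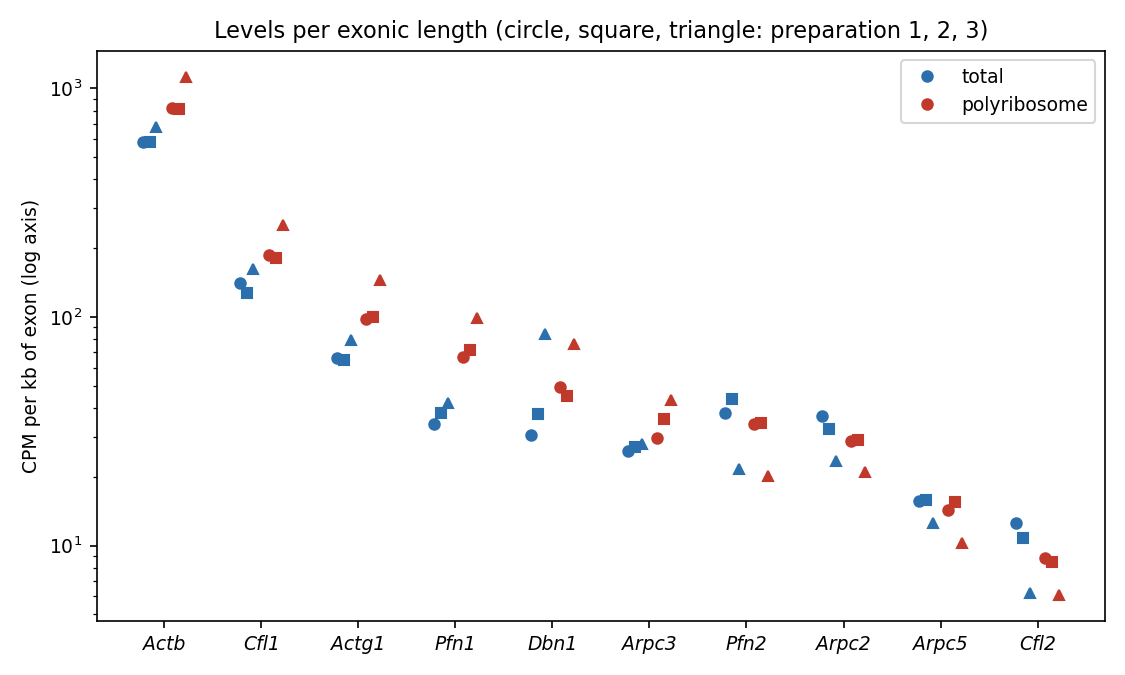
Levels of the 10 genes in CPM per kilobase of exon on a log axis, in the 3 total and 3 polyribosome libraries; circles, squares and triangles are preparations 1, 2 and 3. Actb is the highest in every library, with a mean of 614 in the total and 922 in the polyribosome group, and Cfl2 the lowest, with 9.84 and 7.78.

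The genes whose levels followed Actb most closely were found by Pearson correlation of log2 CPM over the 6 libraries, which are 2 groups of 3 and share preparations, so r is given as a description. Leaving out the 10 genes themselves, of 5744 genes with a mean scaled count of at least 100, the closest were Clu, a secreted chaperone abundant in astrocytes, Aldh7a1, an aldehyde dehydrogenase, and Plin3, a lipid droplet protein, with r of 0.998, 0.998 and 0.997 in that order. Correlations this high were common, with 292 of the 5744 genes above 0.95. The log2 fold changes of the 3 genes were 0.90, 0.75 and 1.16.

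Other genes of the actin system, 106 tested of 108 listed, did not move in one direction. There were 50 positive and 56 negative estimates with a median of -0.06. Of these genes, 20 were apart upwards and 22 downwards, which is near the 17.4% and 18.9% of all genes. In this set 1 gene rose and 2 fell, against 0.710% and 2.36% of all genes. With the block, 14 were called higher and 13 lower, which is near the 11.8% and 13.2% of all genes.

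Gsn, which encodes gelsolin, a filament-severing and capping protein abundant in oligodendrocytes, rose by 0.82 on the log2 scale (SE 0.17, edgeR adjusted p = 0.00808), from 237 ± 26.2 to 420 ± 24.7 CPM. Ssh2, a phosphatase that activates cofilin, fell by 0.93 (SE 0.18, edgeR adjusted p = 0.00631), from 57.4 ± 6.03 to 30.1 ± 3.97 CPM. For both genes the groups were apart. Neither passed with the GC and length offset alone, or without polyribosome replicate 2, total replicate 1, total replicate 2 or total replicate 3. Without polyribosome replicate 1 Ssh2 passed and Gsn did not, and without polyribosome replicate 3 both did.

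In each list below, the lowest and highest genes named are those among genes with a mean scaled count of at least 100. The 7 other Arp2/3 subunits divided as the 3 described above did, with 3 positive and 4 negative estimates (median -0.14) and 0 calls. The lowest such estimate was -0.37 for Actr2, one of the actin-related subunits (edgeR adjusted p = 0.230), and the highest 0.41 for Arpc4 (0.0963). The less counted Arpc5l had -0.48. Arpc4 was called with the block (adjusted p = 0.00883). The 14 nucleation-promoting genes, which switch the complex on, had 5 positive and 9 negative estimates (median -0.28). The estimate was -0.61 for Abi2 of the WAVE complex, which was called lower with the block (adjusted p = 3.21e-05), and 0.30 for cortactin (Cttn). Of 13 formins and related nucleators, which build unbranched filaments, 5 were positive and 8 negative (median -0.16). Cobl had -0.67 (edgeR adjusted p = 0.0206) and Daam2 0.44 (0.0779), and with the block both were called (adjusted p = 5.81e-05 and 0.00322). Diaph3, with few counts, had -0.97.

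The cofilin pathway (kinases, phosphatases and cofactors of cofilin) had 8 positive and 11 negative estimates of 19 (median -0.06), and its highest was 0.49 for Coro1b, a coronin. The 4 other monomer-binding genes had 2 of each sign. Thymosin β4 (Tmsb4x) had -0.28, and Mtss1l had 0.73 (edgeR adjusted p = 0.0394) and was called with the block (adjusted p = 4.90e-07). Among 11 capping and severing genes, 5 were positive and 6 negative (median 0.00). Tmod2, a pointed-end cap of neurons, had -0.36, and the less counted Tmod1 -0.56. Gsn was the highest of that list.

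Side-binding and crosslinking genes, the list to which drebrin belongs by function, had 16 positive and 6 negative estimates of 22 (median 0.22). They ran from -0.69 for Ppp1r9a (neurabin) to 0.76 for Ezr (ezrin, edgeR adjusted p = 0.0471), which links actin to the membrane, and both were called with the block (adjusted p = 6.93e-05 and 5.65e-07).

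**Figure D5:**
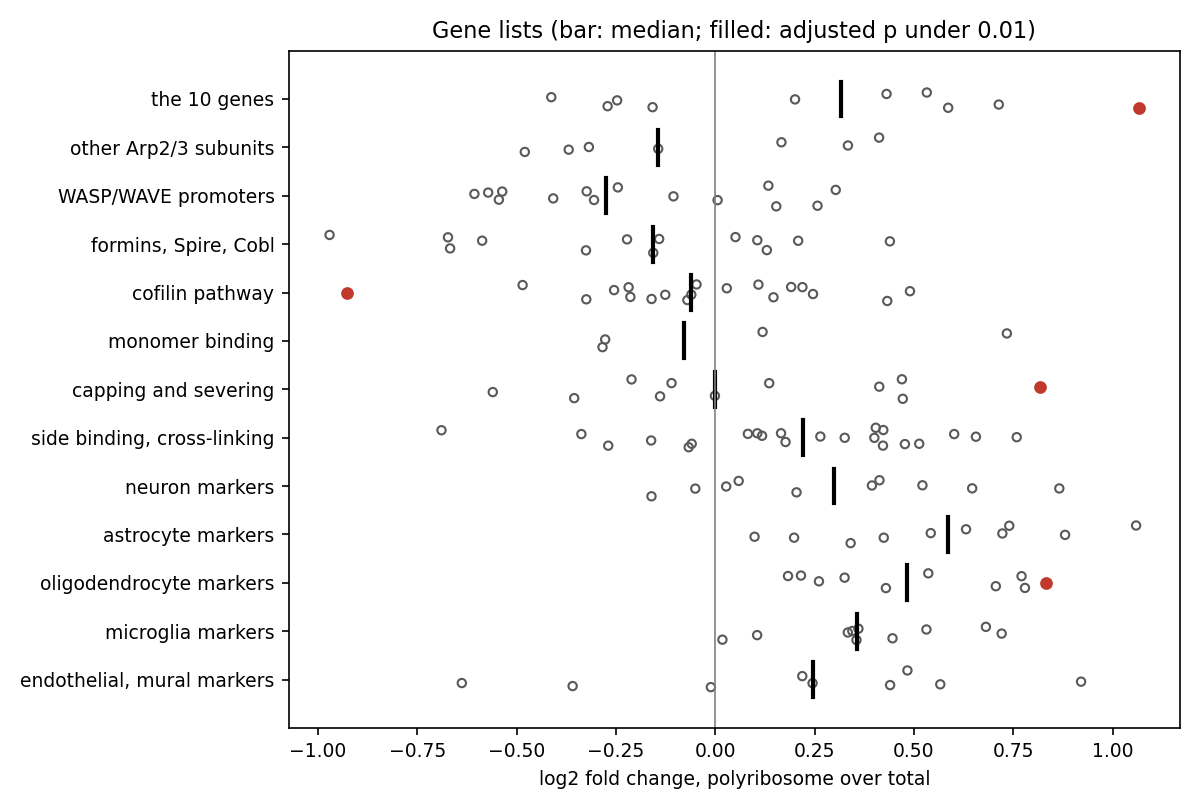
Log2 fold change of the polyribosome over the total group for each tested gene (points) of the 10 genes described, 7 lists of other actin genes and the 5 lists of cell type markers, with the median of each list as a bar. The other actin lists lie on both sides of 0 (medians -0.28 to 0.22), and every astrocyte, oligodendrocyte and microglia marker lies above 0.

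Markers of cell types were measured in the same libraries, since the actin genes are made by all of them. The summed level of 10 neuronal and synaptic markers was 12439 to 16044 CPM in the polyribosome group and 10511 to 13119 CPM in the total group, with 8 of 10 estimates positive (median 0.30, 0 called), from -0.16 for Snap25 to 0.87 for Nrgn. The 10 astrocyte markers were all positive (median 0.59, 0 called), from 0.10 for Aqp4 to 1.06 for Aldoc, and their sums of 44749 to 49150 and 34416 to 40331 CPM were apart. The labelled tissue fraction thus held neuronal, synaptic and astrocyte RNA in every library.

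All 10 oligodendrocyte markers were positive (median 0.48, 1 called), from 0.18 for Mobp to 0.83 for Cldn11, with sums of 11551 to 15678 against 8297 to 11708 CPM. All 10 microglia markers were positive (median 0.36, 0 called), from 0.02 for P2ry12 to 0.72 for C1qa, with sums of 1033 to 1203 against 666 to 942 CPM. For 9 endothelial and mural markers tested of 10, 6 were positive and 3 negative (median 0.24, 0 called), from -0.64 for Rgs5 to 0.92 for Cldn5, with sums of 490 to 821 against 558 to 588 CPM. No marker of any list was at 0 in a library, and Tagln, the one not tested, had 1 to 9 counts. With the block, 5 neuronal, 7 astrocyte, 6 oligodendrocyte, 4 microglia and 2 endothelial or mural markers were called higher, and 1 endothelial or mural marker lower. Of all genes tested, 11.8% were called higher and 13.2% lower with the block. In the fit on group alone, 50.1% of all genes had a positive estimate, 0.710% were called higher and 2.36% lower. The part of these cell types in the differences of Actb, Actg1, Cfl1 and Pfn1 was not tested.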

How the data were processed

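Per the labels and methods, total RNA and pooled polyribosomal RNA were depleted of ribosomal RNA and made into strand-specific libraries, and the authors sequenced 100-base paired reads. Their processing notes name CASAVA 1.8.2, STAR 2.5.2b and HTSeq; reads were aligned to GRCm38. The authors deposited 1 table of raw counts per gene for 21958 protein-coding genes; whether counting used strand is not given in the sources used here. The deposited table also holds columns of the authors' own DESeq2 comparison, namely a mean normalised signal, a log2 fold change with its error, a test score, and p-values, which were not used.

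Counts as deposited were tested with edgeR 4.0.16 (R 4.3.3; filterByExpr, TMM scaling, glmQLFit and glmQLFTest on group, Benjamini-Hochberg adjustment over 12255 genes, threshold 0.01). DESeq2 1.42.0, other scalings and filters, a block for the preparation, a GC and length offset, and leaving out libraries were alternatives. CPM are TMM-scaled. Levels per kb used exonic lengths from Gencode on GRCm38, in a later release than that of the counts. Ratios were tested by exact permutation (scipy 1.17.1) and by exact sign flips of the differences within preparations. The 10 genes, the gene lists and the tests were chosen with earlier results of these data known. All 10 genes are named, as are the genes of the other actin lists past the threshold (except those of 1 list, not reported here on its own), the extremes of each list among genes with a mean scaled count of at least 100, the extremes of each marker list, and the 3 genes, other than these 10, most correlated with Actb. Of 177 list symbols, 4 were matched by gene ID, and Pdxp is not analysed here.

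Same-numbered libraries are aliquots of the same preparation and carry the same code in the labels, and once group means were removed their log2 CPM correlated by 0.37, 0.26 and 0.38. Numbers therefore pair the libraries. Replicates are preparations from pooled mice. On simulated data for this comparison (12137 genes tested), 60.6% of genes changed by a log2 of 1 and 99.0% of those changed by 2 were called, with 1 false call. The simulated counts had no effect of preparation, GC content or length, so these rates need not hold for the real libraries.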

Additional observations from a re-analysis of the deposited data

How the results depend on the processing

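Genes called higher (87) and lower (289) numbered 1441 and 1622 with the replicate block, 1117 and 888 with the block and the GC and length offset, 26 and 91 with that offset alone, 476 and 566 with all genes that had a count, and 799 and 1085 at an adjusted p under 0.05. Genes called higher were 316 with DESeq2 and 42 with scaling by total counts only, where the median of all genes was -0.11. Leaving out 1 library gave 2 to 59 higher and 32 to 207 lower, and leaving out both libraries of preparation 3, chosen after seeing the data, 450 and 658. Of the 10 actin genes (1 higher), the number called higher was 4 with the replicate block (Actb, Actg1 and Cfl1 added), 4 with block and offset, 0 with the offset alone, 2 with DESeq2, 2 with all genes, 3 at 0.05, 0 to 1 without a library and 2 without preparation 3; 0 were called lower. The block changed no other call among the 10. Of the other actin genes (1 higher, 2 lower), 14 and 13 were called with the replicate block, 11 and 8 with block and offset, 0 and 0 with the offset alone, 4 and 6 at 0.05, 4 and 6 without preparation 3, and 0 to 1 each without a library; 3 were higher with all genes, 0 higher with total counts only, and 1 lower with the relative log expression scaling or with at least 10 counts in every library. Cfl2 turned from -0.41 to 0.0861 with the offset and 0.0911 with the replicate block and offset. Dbn1 (0.20) turned to -0.0589 with the offset and -0.00951 with block and offset, and ran from -0.0798 without total replicate 1 to 0.740 without total replicate 3, with -0.0488 without polyribosome replicate 3. Arpc2/Arpc5 (-0.0804) ran from -0.156 without total replicate 3 to 0.00399 without total replicate 1. The other 5 ratios kept their sign when a library was left out, while 4 of them, all but Actb/Actg1, moved by over 1.5 times without polyribosome replicate 3; no offset was applied to ratios. The cause of these changes was not tested. Total replicate 3, with 1044955 counts, limited the precision of Cfl2 (19 counts).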
